A study of Rattus norvegicus with 16 samples.

Results

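Igf1 encodes insulin-like growth factor 1 and was 1 gene of the 32552 counted in RNA from the implant–abdominal wall interface of rats. It was found by the symbol paired with its Ensembl ID in the study's supplementary sheets, and it was chosen by its measured counts in these libraries. Its own levels are therefore given as a description, with no test. The study asked how the tissue under an implant that adheres to the organ surface differs from the tissue under an implant that does not adhere. Polyurethane mock devices with an adhesive layer were pressed onto the abdominal wall, and devices with a non-adhesive layer were sutured onto it at their corners, so that adhesion and suturing cannot be told apart. The animals were Sprague Dawley rats labelled female and 12 weeks old. The 16 libraries form 4 groups of 4, namely adhesive day 3, non-adhesive day 3, adhesive day 14 and non-adhesive day 14 after implantation. The labels do not say whether the 4 libraries of a group came from separate animals, so the spread between them may be partly technical. No library of an abdominal wall without an implant was analysed here.

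IGF-1 is a small secreted hormone that acts through the receptor tyrosine kinase IGF1R. The receptor passes its signal through insulin receptor substrates to the phosphoinositide 3-kinase, AKT and mTOR branch and through GRB2 and SOS proteins to the RAS branch. Binding proteins hold most IGF-1 in the extracellular space, and growth hormone raises Igf1 transcription through JAK2 and STAT5, a route that the SOCS proteins restrain. In injured muscle IGF-1 is made by fibroblasts, macrophages and muscle cells, and it is known for promoting growth of muscle precursors and matrix synthesis by fibroblasts.

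The files place Igf1 (ENSRNOG00000004517) on the plus strand of chromosome 7, from 28412198 to 28486609, a span of 74412 bases. Its 20 exon records merge into 6 exons of 343, 46, 157, 182, 52 and 1145 bases, 1925 bases in all, and no other gene of the files lies within the span. Counts were given per gene, so the alternative first exons and the alternative peptide tails known for Igf1 cannot be told apart. The genome build behind these coordinates is uncertain, since the submitters' labels name a mouse build and the study's methods a rat build, while features on chromosome 1 reach 282724300.

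Total assigned reads were 13852126 to 24858976 per library, and every day 14 library was shallower than every day 3 library. The share of reads in the 10 leading genes was 7.72% to 17.0% on day 3 and 18.1% to 28.7% on day 14. Levels are therefore given as CPM, reads relative to library size, scaled by trimmed mean of M-values (TMM) factors, which ranged over the libraries between 0.619 and 1.41. Igf1 had 74 to 1564 reads per library. Counting error alone was small beside the spread between libraries: the exact Poisson 95% interval was 58.1 to 92.9 at 74 reads and 1487 to 1643 at 1564 reads.

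On day 3, Igf1 was lower under the adhesive implants than under the non-adhesive implants in most pairs of libraries. It had 9.07, 14.6, 17.1 and 28.2 CPM in the 4 adhesive libraries (replicates 1 to 4), against 44.7, 22.9, 51.2 and 41.1 CPM in the 4 non-adhesive libraries. The groups overlapped at 1 point, adhesive replicate 4, which lay above non-adhesive replicate 2. An adhesive library was below a non-adhesive library in 15 of the 16 possible pairs. The means were 17.2 ± 8.03 CPM in adhesive libraries and 39.97 ± 12.1 CPM in non-adhesive libraries (SD, n = 4 each), a ratio of 2.32 for non-adhesive over adhesive. The difference exceeded either SD. Leaving out 1 library at a time kept the ratio between 2.00 and 2.94, the highest without adhesive replicate 4.

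On day 14 the direction was the same and the spread in the non-adhesive group was wider. Igf1 had 7.998, 19.3, 18.9 and 9.24 CPM in the 4 adhesive libraries, against 40.1, 46.5, 70.6 and 15.6 CPM in the 4 non-adhesive libraries. Non-adhesive replicates 1, 2 and 3 stood above every adhesive library, and replicate 4 lay below adhesive replicates 2 and 3. The means were 13.9 ± 6.08 CPM in adhesive libraries and 43.2 ± 22.6 CPM in non-adhesive libraries (SD, n = 4 each), a ratio of 3.12 for non-adhesive over adhesive. Leaving out non-adhesive replicate 3 lowered the ratio to 2.46, and leaving out replicate 4 of the same group raised it to 3.78.

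**Figure D1:**
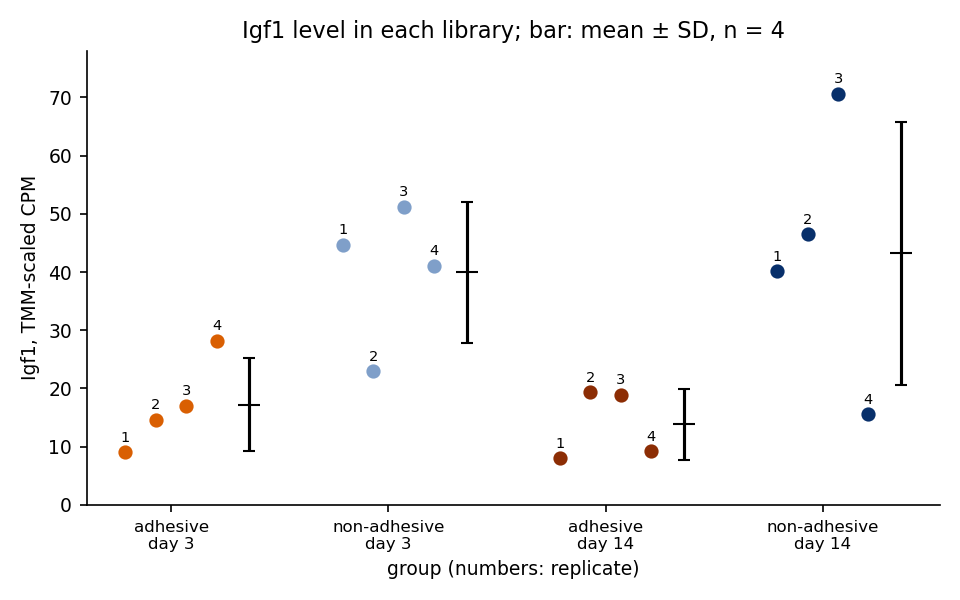
Igf1 level in TMM-scaled CPM (vertical axis) in each of the 16 libraries, by group (horizontal axis). Points are libraries numbered by replicate, and the bar beside each group is its mean ± SD (n = 4); adhesive libraries lie between 7.998 and 28.2 CPM and non-adhesive libraries between 15.6 and 70.6 CPM.

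In the order of group means, Igf1 was highest in non-adhesive day 14 tissue, followed by non-adhesive day 3, adhesive day 3 and adhesive day 14 tissue. The step between the non-adhesive groups and the step between the adhesive groups were each smaller than the SD of either neighbour, whereas the step between non-adhesive day 3 and adhesive day 3 was larger. The level within a group varied by 3.11-fold from lowest to highest library in adhesive day 3 tissue, 2.23-fold in non-adhesive day 3, 2.41-fold in adhesive day 14 and 4.53-fold in non-adhesive day 14 tissue. Igf1 stood between rank 2168, in non-adhesive day 14 replicate 3, and rank 8860, in adhesive day 14 replicate 1, among the 17032 to 19203 genes with a read in each library.

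The fit of edgeR across all genes gave Igf1 a log2 fold change, adhesive over non-adhesive, of −1.20 (SE 0.37) on day 3 and −1.64 (SE 0.47) on day 14. Of all genes tested, 0.942% had a lower log2 fold change on day 3 and 1.69% on day 14. Between days the fitted difference was within its error: −0.31 (SE 0.44) for day 14 over day 3 under adhesive implants and 0.11 (SE 0.43) under non-adhesive implants. The implant effect on day 14 minus that on day 3 was −0.43 on the log2 scale (SE 0.62). Both day comparisons share libraries with the implant comparisons. These values describe the gene that was chosen. A gene was called where its adjusted p did not exceed 0.05 and its log2 fold change was 1 or more in size. On day 3 edgeR called 0.0% of 14223 genes (0 genes, with 1022 at an unadjusted p below 0.05), DESeq2 69 (0.485%) and limma-voom 0. On day 14 edgeR called 36 of 13557 genes (0.266%, or 0.273% whatever the fold) and DESeq2 474 (3.5%). Without non-adhesive replicate 4, the edgeR calls of day 14 numbered 1151, and without any other single library they numbered 1 to 28.

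The rest of the IGF system could be followed only where the supplementary sheets pair an ID with a symbol, which they do for 2007 genes. Neither the receptors Igf1r, Igf2r and Insr nor the ligand Igf2 had a symbol there. Of 13 binding proteins and their regulators 1 had one (Igfbp7), of 8 genes of the growth hormone axis 2 (Socs1 and Socs3), of 41 genes of IGF signalling 13, and of 38 other growth factors 6. No gene of these lists passed edgeR's test between implants on either day. EdgeR called 1186 of 14601 genes between days under adhesive implants (8.12%, or 14.9% whatever the fold) and 1325 under non-adhesive implants (9.07%, or 17.5%). Of the 22 listed genes with a symbol, 2 passed under adhesive implants whatever the fold, Socs1 and Sos2, and 4 under non-adhesive implants, Igfbp7, Gsk3b, Sh2b2 and Wnt9a. Socs1, Sh2b2 and Wnt9a among them met the limit on the fold as well.

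Igfbp7 encodes a secreted protein related to the IGF binding proteins, which binds IGF-1 only weakly and is abundant in vessel walls and stroma. On day 14 it had 86.7, 145, 103.5 and 91.3 CPM in adhesive libraries, against 273, 349, 295.5 and 182 CPM in non-adhesive libraries, with no overlap, as for 4.11% of tested genes in this direction. Non-adhesive replicate 4 was again the lowest library of its group. The log2 fold change was −1.36 (SE 0.25), which did not pass edgeR's test (adjusted p = 0.082) and passed that of DESeq2 (adjusted p = 2.9e-05). With each library left out in turn the edgeR adjusted p ranged from 0.0044, without non-adhesive replicate 4, to 0.27. On day 3 the means were 115 ± 8.86 CPM in adhesive libraries and 160 ± 44.7 CPM in non-adhesive libraries (SD, n = 4 each), and the groups overlapped. Under non-adhesive implants Igfbp7 rose by 0.78 on the log2 scale between day 3 and day 14 (SE 0.23, edgeR adjusted p = 0.032), but it passed in 7 of the 16 fits that left out 1 library (adjusted p 0.013 to 0.11). Under adhesive implants the difference was −0.11 (SE 0.23, edgeR adjusted p = 0.77). The difference between these changes had an edgeR adjusted p of 0.92; in that test edgeR called 1 of 14601 genes (0.00685%). Per length, Igfbp7 was more abundant than Igf1 in every group, at 96.8 FPKM against 7.203 FPKM in adhesive day 14 tissue and 249 FPKM against 22.4 FPKM in non-adhesive day 14 tissue.

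The SOCS genes encode cytokine-induced inhibitors of JAK and STAT signalling, growth hormone signalling included. Socs1 had 0.324, 2.50, 0.959 and 0.235 CPM in adhesive day 14 libraries, against 5.72, 6.49, 2.72 and 8.45 CPM in adhesive day 3 libraries. The groups did not overlap (as for 12.9% of tested genes in this direction), and Socs1 fell by 2.50 on the log2 scale (SE 0.77, edgeR adjusted p = 0.042). The day 14 values rest on as few as 3 reads, and the adjusted p ranged from 0.021 to 0.11 with 1 library left out. Under non-adhesive implants the change of Socs1 was −0.44 (SE 0.71, edgeR adjusted p = 0.71). Socs3 averaged 23.7 ± 20.3 CPM in adhesive day 14 libraries and 60.1 ± 31.5 CPM in adhesive day 3 libraries (SD, n = 4 each), and it did not pass the test in any comparison (edgeR adjusted p of 0.18 between days under either implant). Neither gene passed between implants.

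Downstream of the receptor, 11 of 13 signalling genes had a positive log2 fold change between implants on day 3 (median 0.14) and 12 of 13 on day 14 (median 0.24), where 51.5% and 54.3% of all genes tested had a negative one. None of the 13 passed the test of edgeR. The highest log2 fold change on day 14 was that of Gsk3b, a kinase that AKT inhibits. It had 25.3, 23.1, 41.6 and 31.0 CPM in adhesive libraries, against 13.7, 13.9, 14.0 and 11.8 CPM in non-adhesive libraries, with no overlap, as for 4.54% of tested genes in this direction. Its log2 fold change was 1.18 (SE 0.19; edgeR adjusted p = 0.064, DESeq2 adjusted p = 2.7e-05), and the edgeR adjusted p ranged from 0.013, without non-adhesive replicate 4, to 0.21 with 1 library left out. Under non-adhesive implants Gsk3b fell by 0.73 on the log2 scale between day 3 and day 14 (SE 0.18, edgeR adjusted p = 0.015) in all 16 fits that left out a library. Under adhesive implants the change was 0.05 (SE 0.18, edgeR adjusted p = 0.86), and the test of the difference between the implants gave an adjusted p of 0.76.

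Sos2 and Sh2b2 also passed between days. Sos2, a guanine nucleotide exchange factor that activates RAS, had 85.8, 56.9, 65.5 and 90.2 CPM in adhesive day 14 libraries, against 44.3, 42.1, 46.7 and 43.0 CPM in adhesive day 3 libraries, without overlap (12.6% of tested genes in this direction). It rose by 0.76 on the log2 scale (SE 0.18, edgeR adjusted p = 0.016) and passed in 13 of the 16 fits that left out 1 library. It did not pass without adhesive day 3 replicate 2, adhesive day 14 replicate 1 or adhesive day 14 replicate 4 (edgeR adjusted p = 0.064, 0.077 and 0.055). Under non-adhesive implants Sos2 had 51.2 to 86.1 CPM in day 14 libraries, against 37.4 to 46.7 CPM in day 3 libraries, also without overlap (9.14% of tested genes in this direction). The log2 difference there was 0.53 (SE 0.18, edgeR adjusted p = 0.057), and 0.25 without non-adhesive day 14 replicate 4. Sh2b2, an adaptor of insulin and cytokine receptors, had 11.6, 16.2, 15.7 and 19.3 CPM in non-adhesive day 14 libraries, against 25.7, 54.5, 18.2 and 32.4 CPM in non-adhesive day 3 libraries. The groups overlapped, and Sh2b2 fell by 1.06 on the log2 scale (SE 0.34, edgeR adjusted p = 0.046, 0.029 to 0.13 with 1 library left out). Grb2, the adaptor that recruits SOS proteins, averaged 93.6 ± 3.66 CPM in adhesive day 14 libraries and 89.4 ± 7.04 CPM in non-adhesive day 14 libraries (SD, n = 4 each; edgeR adjusted p = 0.83). Rps6kb1, the S6 kinase downstream of mTOR, averaged 82.2 ± 17.0 CPM in adhesive day 14 libraries and 57.6 ± 14.3 CPM in non-adhesive day 14 libraries (edgeR adjusted p = 0.29). Rptor, the scaffold of mTOR complex 1, and Grb10, an adaptor that damps insulin and IGF receptor signalling, had log2 fold changes of 0.27 (SE 0.14) and 0.21 (SE 0.15) on day 14, with edgeR adjusted p of 0.40 and 0.55.

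**Figure D2:**
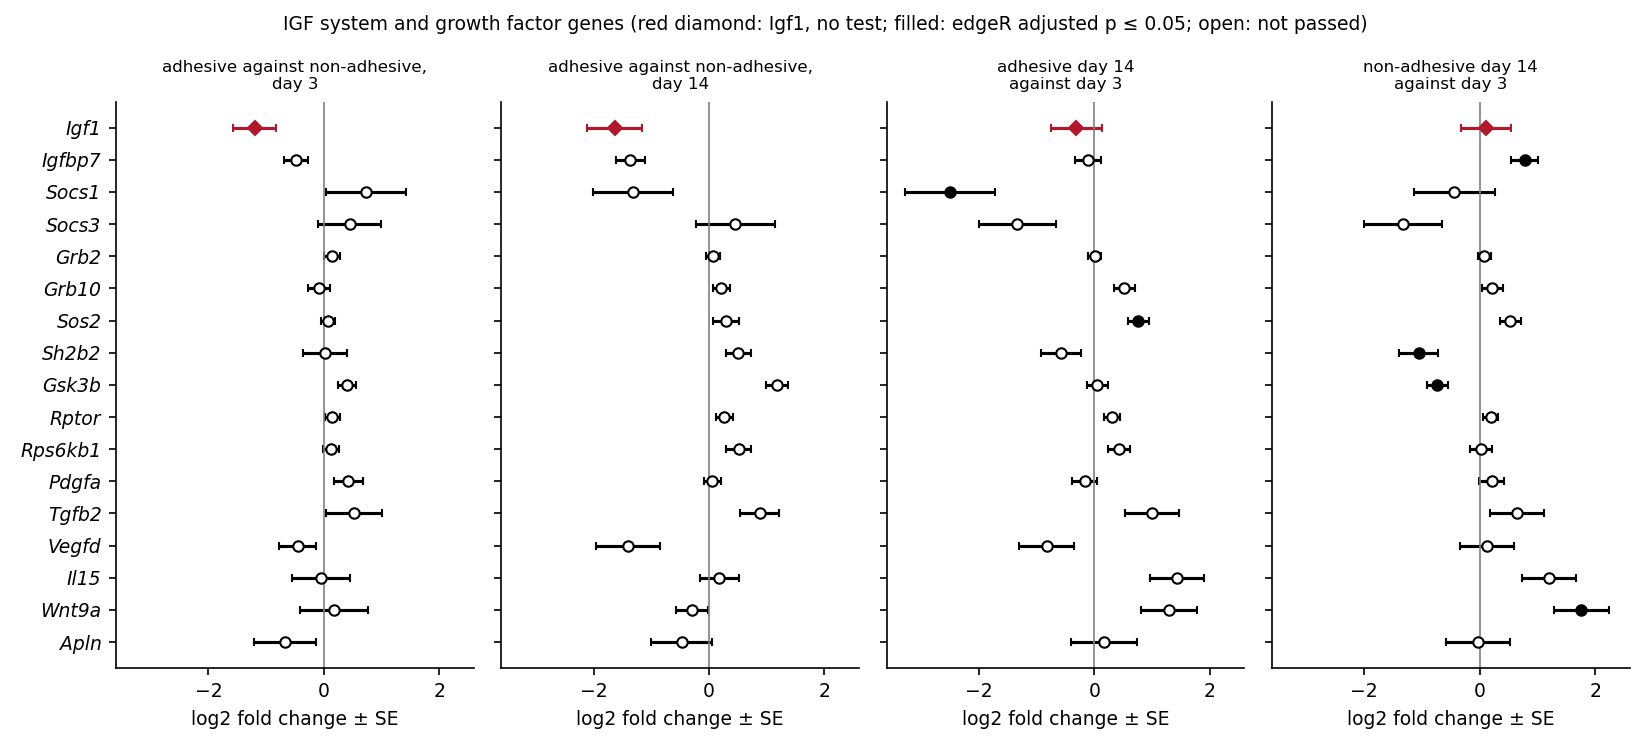
Log2 fold change ± SE (horizontal axis) of Igf1 and 16 other genes of the IGF system and growth factor lists (rows) in 4 comparisons (panels). Igf1 is a red diamond without a test; filled circles passed the edgeR test (adjusted p not above 0.05), open circles did not, and no circle is filled in the panels that compare implants.

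Among other growth factors, Vegfd, a ligand of the lymphatic receptor FLT4, had the highest r with Igf1 over the 16 libraries (0.83, log2 CPM), and it was singled out after its values were seen. It had 5.19, 8.86, 8.54 and 7.83 CPM in adhesive day 14 libraries, against 13.6, 27.6, 35.3 and 4.15 CPM in non-adhesive day 14 libraries. Non-adhesive replicate 4 was below all 4 adhesive libraries, whereas for Igf1 it lay above adhesive replicates 1 and 4. The log2 fold change was −1.41 (SE 0.55, edgeR adjusted p = 0.26), and −1.75 without that library (adjusted p = 0.013). Tgfb2, a transforming growth factor ligand, lay on the other side: its values were 61.1, 57.7, 146 and 52.1 CPM in adhesive day 14 libraries and 51.6, 40.6, 35.0 and 45.2 CPM in non-adhesive day 14 libraries, without overlap (4.54% of tested genes in this direction). The log2 fold change was 0.88 (SE 0.34, edgeR adjusted p = 0.25), and 0.39 without adhesive replicate 3, the library at 146 CPM. Pdgfa, a fibroblast mitogen, averaged 32.1 ± 2.31 CPM in adhesive day 14 libraries and 30.9 ± 5.43 CPM in non-adhesive day 14 libraries (SD, n = 4 each; edgeR adjusted p = 0.90). Wnt9a, a secreted WNT ligand, had 3.53, 3.48, 3.37 and 3.94 CPM in non-adhesive day 14 libraries, against 0.999, 1.10, 0.193 and 1.92 CPM in non-adhesive day 3 libraries, without overlap (9.14% of tested genes in this direction). It rose by 1.76 on the log2 scale (SE 0.48, edgeR adjusted p = 0.023, 0.014 to 0.056 with 1 library left out). Il15, a cytokine made by muscle and leukocytes, had a log2 difference between days of 1.42 under adhesive implants (SE 0.47, edgeR adjusted p = 0.053) and 1.20 under non-adhesive implants (SE 0.46, edgeR adjusted p = 0.087). The other tools gave Il15 lower values: DESeq2 adjusted p of 0.017 and 0.05, and limma-voom adjusted p of 0.032 and 0.034.

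Genes were then ordered by how closely their levels followed Igf1, as Pearson's r of log2 CPM over the 16 libraries. These values are a description: the libraries share a scaling, and the genes chosen are those with a symbol. Over 13151 genes with a mean of at least 1 CPM the median r was 0.0091, and 37 genes (0.281%) reached 0.9. Among the 1908 of them with a symbol, the closest were Fbxw9 (r = 0.92), Tspan6 (0.90), Prdx4 (0.90), Col1a1 (0.90), Csrp2 (0.90), Cbr3 (0.89), Btg3 (0.89) and Vasn (0.89). They include the main chain of type I collagen (Col1a1), a peroxiredoxin of the endoplasmic reticulum (Prdx4), a tetraspanin (Tspan6), a LIM domain protein (Csrp2), a carbonyl reductase (Cbr3) and a membrane protein that binds transforming growth factor (Vasn). Prdx4 had 11.5, 25.2, 15.9 and 13.5 CPM in adhesive day 14 libraries, against 30.1, 37.5, 30.6 and 14.7 CPM in non-adhesive day 14 libraries, so that non-adhesive replicate 4 was low as it was for Igf1. Tspan6 had 12.0, 17.9, 13.2 and 13.5 CPM in adhesive day 14 libraries, against 26.5, 30.3, 27.4 and 16.1 CPM in non-adhesive day 14 libraries. Here too the fourth non-adhesive library lay among the adhesive ones. Both genes were picked by their r with Igf1 over these libraries, so this likeness follows from the choice. The lowest r belonged to Flii (−0.89), a gelsolin family protein that remodels actin, Fhl1 (−0.87), a LIM protein of muscle fibres, Prmt7 (−0.87), an arginine methyltransferase, and Esf1 (−0.87), a nucleolar protein. Flii had 362, 280, 305 and 322 CPM in adhesive day 14 libraries, against 219, 222, 230 and 310 CPM in non-adhesive day 14 libraries. Its non-adhesive libraries other than replicate 4 lay below every adhesive library, whereas those of Igf1 lay above. Replicate 4 was the highest of its group for Flii and the lowest for Igf1. The low r of these genes depended on the scaling: without TMM factors r was 0.12 for Flii, −0.47 for Fhl1, 0.18 for Prmt7 and 0.17 for Esf1, while the median of all genes was 0.52.

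The marker lists of cell types were set beside Igf1 because bulk RNA cannot separate fewer cells of a type from less RNA per cell. The muscle fibre list was present in every library (12 of 20 genes with a symbol, summed 4755 to 30865 CPM), as the labelled tissue requires. The fibroblast list had 16 of 19 genes with a symbol, none at 0 in any library. Its sum ranged from 3502 to 10551 CPM in adhesive day 3, 5626 to 15142 CPM in non-adhesive day 3, 2251 to 12682 CPM in adhesive day 14 and 2785 to 18906 CPM in non-adhesive day 14 libraries. Between implants all 16 genes had a negative log2 fold change on day 3 (median −0.90) and 15 of 16 on day 14 (median −1.18). None passed the edgeR test on day 3, and 1, Fmod, was called lower on day 14 (0.111% of all genes tested). DESeq2 called 2 of the 16 lower on day 3 and 3 on day 14. Over all genes tested it called 0.485% and 3.5% in either direction. Fmod, a collagen-binding proteoglycan, is named after its values were seen; its log2 fold change was −2.36 (SE 0.34, edgeR adjusted p = 0.044). Col1a1 had the lowest value on day 3 (−1.60, SE 0.57, edgeR adjusted p = 0.63). It averaged 958 ± 623 CPM in adhesive day 3 libraries and 2959 ± 1569 CPM in non-adhesive day 3 libraries, and 1191 ± 998 CPM in adhesive day 14 libraries and 3441 ± 1893 CPM in non-adhesive day 14 libraries (SD, n = 4 each). Lum, of the same proteoglycan family, averaged 197 ± 116 CPM in adhesive day 14 libraries and 578 ± 354 CPM in non-adhesive day 14 libraries (SD, n = 4 each; edgeR adjusted p = 0.32). The list was not uniform on day 14. The log2 fold change was −1.01 (SE 0.72) for Col3a1 and −0.69 (SE 0.55) for Dcn. Closest to no difference were Prrx1 (0.30, SE 0.20), Ddr2 (−0.02, SE 0.50) and Pi16 (−0.10, SE 0.60).

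Igf1 followed the mean log2 CPM of the fibroblast list closely, with r = 0.89 and Spearman's rho = 0.86 over the 16 libraries, 0.93 over the 8 of day 3 and 0.92 over the 8 of day 14. Without the 2 libraries farthest from the median of the list it was 0.83 (n = 14), and on deviations from the group means 0.88. Single members followed Igf1 less evenly over the 16 libraries: their r ran from 0.18 (Prrx1) to 0.90 (Col1a1), with a median of 0.75. Non-adhesive day 14 replicate 4 had the lowest list mean of its group (5.76, against 7.50 to 7.997 in the other replicates) as well as the lowest Igf1. The list mean itself differed between adhesive and non-adhesive libraries by −0.91 (SE 0.33) on day 3 and −1.08 (SE 0.65) on day 14, and by −1.59 on day 14 without that library. Igf1 log2 CPM differed by −1.26 (SE 0.42) and −1.55 (SE 0.57). The part that the marker level plays in the Igf1 difference was not tested. Taken relative to the fibroblast list, Igf1 was −2.01 ± 0.39 in adhesive day 3 libraries and −1.65 ± 0.24 in non-adhesive day 3 libraries, and −2.50 ± 0.48 in adhesive day 14 libraries and −2.03 ± 0.25 in non-adhesive day 14 libraries (log2, SD, n = 4 each). The groups overlapped on both days, and the differences were −0.36 (SE 0.23) on day 3 and −0.47 (SE 0.27) on day 14.

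**Figure D3:**
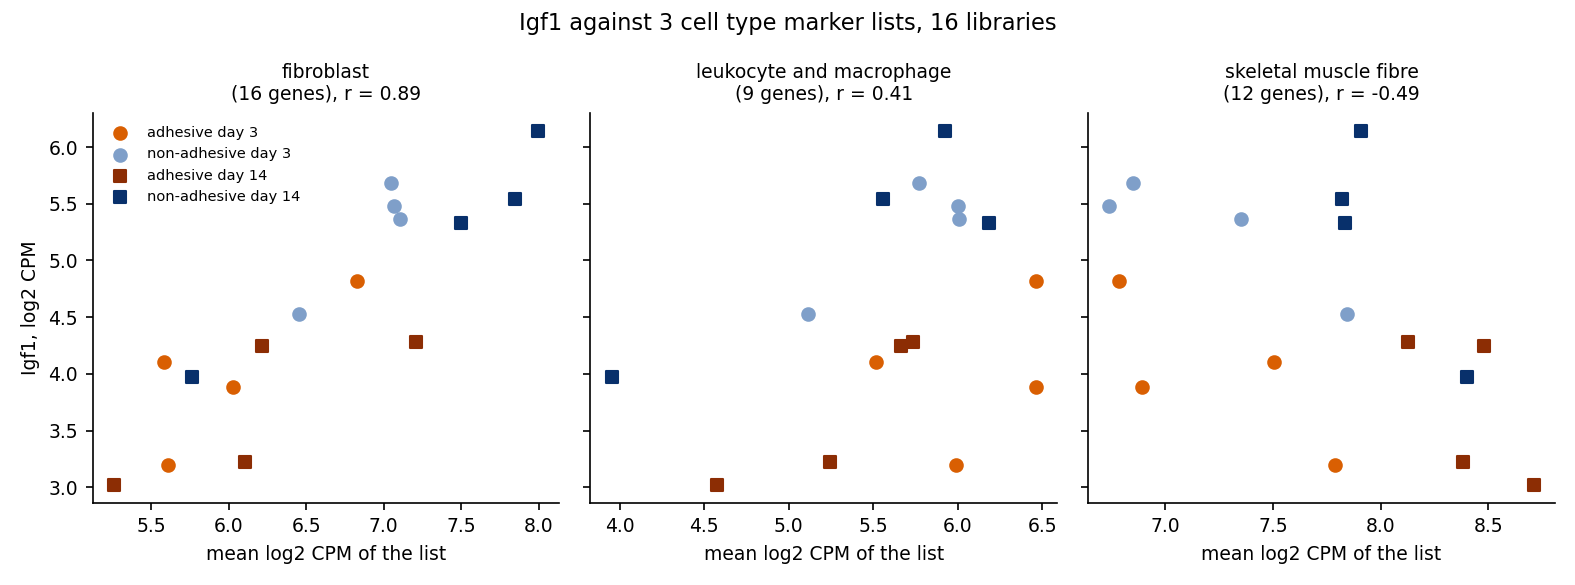
Igf1 log2 CPM (vertical axis) against the mean log2 CPM of the fibroblast, leukocyte and macrophage, and skeletal muscle fibre lists (horizontal axes) in the 16 libraries, coloured by group with circles for day 3 and squares for day 14. Igf1 rises with the fibroblast list (r = 0.89), less with the leukocyte list (0.41) and falls with the muscle list (−0.49).

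The leukocyte and macrophage list differed from the fibroblast list in its direction between implants on day 3. It had 9 of 15 genes with a symbol, none at 0. Cd68, Adgre1, Csf1r, Mrc1, Cd163 and Itgam had no symbol, so the list does not single out macrophages. The sums were 546 to 1170 CPM in adhesive day 3 and 436 to 901 CPM in non-adhesive day 3 libraries. On day 14 they were 391 to 852 CPM in adhesive and 202 to 984 CPM in non-adhesive libraries. Between implants 7 of 9 genes had a positive log2 fold change on day 3 and 3 of 9 on day 14, and none passed the edgeR test. Ptprc, the pan-leukocyte phosphatase CD45, averaged 123 ± 46.6 CPM in adhesive day 3 libraries and 72.2 ± 32.8 CPM in non-adhesive day 3 libraries, and 70.1 ± 23.3 CPM in adhesive day 14 libraries and 80.5 ± 52.2 CPM in non-adhesive day 14 libraries (SD, n = 4 each; edgeR adjusted p = 0.72 and 0.90). Igf1 had an r of 0.41 with the list mean over the 16 libraries, −0.05 on day 3 and 0.64 on day 14. On deviations from the group means r was 0.78, against 0.88 for the fibroblast list, so within groups Igf1 rose with both lists. The r of single members of the leukocyte and macrophage list on day 3 ran from −0.36 (Tlr7) to 0.55 (Sirpa). Relative to this list, Igf1 was −2.79, −2.58, −1.41 and −1.64 in adhesive day 3 libraries, against −0.52, −0.59, −0.09 and −0.65 in non-adhesive day 3 libraries (log2). On day 14 it was −1.55, −1.46, −1.41 and −2.02 in adhesive libraries, against −0.85, −0.01, 0.22 and 0.02 in non-adhesive libraries. The groups did not overlap on either day, non-adhesive replicate 4 included, and the differences were −1.65 (SE 0.36) on day 3 and −1.45 (SE 0.28) on day 14. The list mean itself differed by 0.38 (SE 0.31) on day 3, opposite in direction to Igf1. On day 14 it differed by −0.10 (SE 0.57). How many other genes separate in this way relative to the list was not counted.

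The mean of the muscle fibre list ran against Igf1, with r = −0.49 over the 16 libraries, −0.56 on day 3 and −0.89 on day 14. On deviations from the group means r was −0.73. Its sum was 18846 to 30865 CPM in adhesive day 14 libraries and 12026 to 29885 CPM in non-adhesive day 14 libraries, the highest non-adhesive value being that of replicate 4. On day 3 the sums were 5561 to 14540 CPM in adhesive libraries and 4755 to 12220 CPM in non-adhesive libraries. Mb, the oxygen store of muscle fibres, averaged 7542 ± 1179 CPM in adhesive day 14 libraries and 3548 ± 1916 CPM in non-adhesive day 14 libraries (SD, n = 4 each). These groups did not overlap for Mb, as for 4.54% of tested genes in this direction. Its adjusted p was 0.22 by edgeR and 0.047 by DESeq2. Eno3, more abundant than Mb, averaged 8521 ± 2613 and 8339 ± 4880 CPM in the same groups (edgeR adjusted p = 0.99). The list was not uniform: 10 of 12 genes had a positive log2 fold change between implants on day 14 (range −1.93 to 1.60) and 7 of 12 on day 3. None passed the edgeR test. The r of single members with Igf1 ran from −0.87 to 0.81. Relative to the muscle list, Igf1 differed between adhesive and non-adhesive libraries by −1.31 (SE 0.74) on day 3 and −1.99 (SE 0.72) on day 14, and the groups overlapped on both days. The markers of adipocytes (2 of 6 genes with a symbol), endothelium (5 of 8) and regenerating muscle (2 of 9) had r with Igf1 of 0.65, 0.35 and −0.40. The adipocyte list mean, of Adipoq and Retn, differed between adhesive and non-adhesive libraries by −0.04 (SE 1.26, log2) on day 3 and −3.00 (SE 1.05) on day 14, a larger difference on day 14 than that of the fibroblast list. Retn had 0 reads in adhesive day 14 replicate 1. Adipoq, the hormone adiponectin of fat cells, had 1.84, 19.8, 7.67 and 13.2 CPM in adhesive day 14 libraries, against 47.0, 32.3, 313.6 and 96.9 CPM in non-adhesive day 14 libraries. The groups did not overlap (4.11% of tested genes in this direction), and the log2 fold change was −3.51 (SE 0.89, edgeR adjusted p = 0.12, DESeq2 adjusted p = 0.00065). Relative to the adipocyte list, Igf1 was on the other side on day 14, at a difference of 1.45 (SE 1.00) with overlapping groups, and at −1.22 (SE 0.96) on day 3. The regenerating muscle list mean, of Myf5 and Chrne, differed by 0.42 (SE 0.46) on day 3 and 0.81 (SE 0.13) on day 14. On day 14 adhesive libraries lay at 2.96 to 3.23 and non-adhesive libraries at 2.11 to 2.56. How many other pairs of genes separate so was not counted. Each gene alone overlapped between implants on day 14 and did not pass (edgeR adjusted p = 0.23 for Myf5 and 0.47 for Chrne). For the endothelial list the differences were 0.42 (SE 0.39) and −0.57 (SE 0.30). The part of these lists in the Igf1 difference was not tested.

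**Figure D4:**
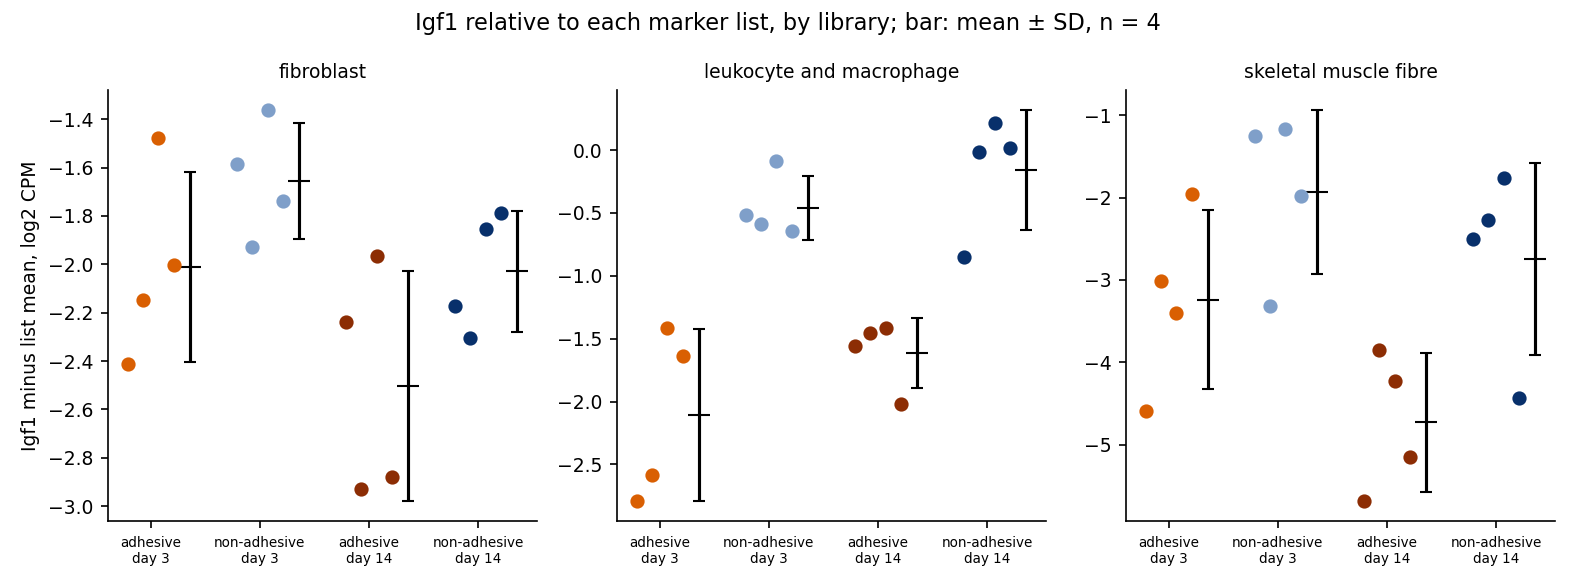
Igf1 log2 CPM minus the mean log2 CPM of each marker list (vertical axes, each panel with its own scale) in each library by group, with the mean ± SD (n = 4) beside the points. The adhesive and non-adhesive groups of a day are apart relative to the leukocyte and macrophage list and overlap relative to the fibroblast and muscle fibre lists. No share of other genes that separate so was taken.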

How the data were processed

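RNA was measured in 16 rat abdominal wall libraries, prepared with poly(A) selection and sequenced in pairs of reads. The deposited files hold whole-number counts of reads per gene and, in another column, merged exon length in bases. Per the submitters' processing notes the authors used bcl2fastq 2.17, cutadapt, STAR and featureCounts, pooling no replicates. Build and days are stated inconsistently: the labels name GRCm38, and a design note and a protocol name other days than the labels used here. Symbols came from the study's supplementary sheets, whose fold changes and p-values were not used.

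Genes were tested with edgeR 4.0.16 (quasi-likelihood, robust, TMM, filterByExpr, Benjamini-Hochberg), each day alone for implants and all 16 libraries for days. DESeq2 1.42.0 and limma-voom (limma 3.58.1) were alternatives. A call required both an adjusted p not above 0.05 and a log2 fold change of 1 or more in size. Log2 CPM used a prior count of 2. FPKM is TMM-scaled CPM per kilobase of merged exon. SEs of list differences treat libraries as independent. Intervals on counts cover counting error only.

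Igf1, the gene lists and the tests were chosen with earlier results of these data known. The text names Igf1; list members of the binding protein and growth hormone groups; signalling and growth factor genes that passed or were among the 6 most abundant of their list; the 8 genes most and 4 least like Igf1; and up to 4 abundant members of each marker list. Of the genes this rule names, 1 is not reported here. The fits were tested on simulated data. No 2 libraries held identical counts.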

Additional observations from a re-analysis of the deposited data

Results flagged for a closer look

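In 96 groups of 4 libraries (18 genes and 6 list measures in 4 groups), 1 library lay apart from the other three in 8 cases, where chance gives about 1 in 20. No Igf1 group was among them. Non-adhesive day 14 replicate 4 accounted for 4: Sos2 at 86.1 CPM (others 51.2 to 53.4), Rps6kb1 at 79.0 CPM (others 49.5 to 51.2), Gsk3b at 11.8 CPM (others 13.7 to 14.0), and the muscle fibre list mean at 8.40 log2 CPM (others 7.82 to 7.91). Non-adhesive day 3 replicate 2, the lowest Igf1 library of its group, had a fibroblast list mean of 6.45 log2 CPM (others 7.04 to 7.10) and Il15 at 20.7 CPM (others 5.18 to 7.06). Tgfb2 reached 146 CPM in adhesive day 14 replicate 3 (others 52.1 to 61.1), and Apln, a vascular peptide, 8.77 CPM in non-adhesive day 14 replicate 3 (others 2.59 to 2.91). None of the 17 other genes tested had an implant effect that differed between days by the edgeR test.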

How the results depend on the processing

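The Igf1 log2 fold changes moved by less than the pooled SD between replicates (0.71) in all 91 alternative fits. That limit is a wide one, being the spread of single libraries. It exceeds the fitted differences between days and the change of the implant effect, so it cannot show that those held. Without 1 library they ranged between −1.57 and −0.98 (implants, day 3), −1.92 and −1.29 (implants, day 14), −0.57 and −0.0045 (days, adhesive), −0.23 and 0.32 (days, non-adhesive) and −0.69 and −0.066 (change of the implant effect).

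Numbers of genes called depended on the tool. DESeq2 called 69 genes between implants on day 3, 474 on day 14 and 25 for the change of the implant effect between days, where edgeR called 0, 36 and 1. A single fit of all 16 libraries called 216 on day 14. With no limit on the fold change, edgeR passed 2174 genes between days under adhesive and 2561 under non-adhesive implants. With 1 library left out, calls ranged from 0 to 0 between implants on day 3, 1 to 1151 on day 14, 462 to 1570 between days under adhesive implants, 744 to 1740 under non-adhesive implants and 0 to 3 for the change of the implant effect. The causes were not tested.

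Same-numbered libraries of the implant groups deviated together with r of −0.388 to 0.130 on day 3, where 1 of 4 correlated best with its own number, and −0.117 to 0.511 on day 14, where 3 of 4 did. The labels give no link between them beyond that number. With it as a replicate block, edgeR called 0 genes between implants on either day and 0 for that change, and the Igf1 log2 fold changes were −1.26 and −1.56.

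Of the 8 named genes most like Igf1, 3 led by Spearman's rho, 0 by deviations from group means, 5 without non-adhesive day 14 replicate 4, 8 with a prior count of 0.5 and 5 without TMM scaling, an alternative chosen after seeing the data, which moved the median r of all genes to 0.52.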
